A study of Mus musculus with 20 samples.

Results

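Transcripts of heart muscle were measured on microarrays of mouse whole blood. The set held the 10 genes Myh6, Myl2, Myl3, Myl4, Myl7, Tnnt2, Tnni3, Actc1, Nppa and Mb, found by gene name among 31093 gene names on the array, and 11 of the 39429 non-control probes carried them. The genes were chosen for the way their signals varied on these same arrays, so their levels and differences are given as a description, with no test. The mice were male littermates on a C57BL/6 background, 8 to 10 weeks old. They were labelled either wild type (WT) or Il10-/- (the targeted allele Il10tm1Cgn, which removes the anti-inflammatory cytokine interleukin 10 and makes mice prone to intestinal inflammation). Mice of each genotype received 7 Gy of X-rays to the whole body or a sham exposure (0 Gy), and blood was drawn 24 h later by cardiac puncture, that is, through a needle passed into the heart. There were 5 arrays in each of the 4 groups, 1 mouse per array per the study's methods, and globin transcripts had been depleted from the RNA.

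Heart muscle contracts when thick filaments of myosin pull on thin filaments of actin. Myh6 encodes the main myosin heavy chain of the adult mouse heart, in both atria and ventricles. The light chains that sit on the myosin head differ by chamber: Myl2 and Myl3 encode the ventricular regulatory and essential light chains, and Myl7 and Myl4 their atrial counterparts. Myl3 is also made in slow skeletal muscle, and Myl4 in fetal muscle. Tnnt2 and Tnni3 encode the cardiac troponins T and I, which make the thin filament responsive to calcium, and Actc1 encodes cardiac actin. Nppa encodes atrial natriuretic peptide, a hormone released by atrial muscle, and Mb encodes myoglobin, the oxygen store of muscle. Blood cells are not a known main source of these transcripts, although Myl4 has also been described in red cell precursors.

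Values below are log2 signals relative to the median of the same array, so that 0 is the array's median probe and a step of 1 is a doubling. A signal is called well above background where the scanner software marked it so. Levels of different probes were not set against each other, since each probe has its own brightness. The sequences of the probes that carry the main patterns are given first, because an array signal can only be assigned to a gene through its probe. All are printed 5′ to 3′ in lower case, from the array's own annotation, with positions in the build mm9. The ventricular and atrial light chains were read by these probes, with the first 30 bases shown for Myl2 and the whole probe for Myl7, and with the Myl2 probe lying at chr5:122556732-122556791 on the plus strand and no position given for the Myl7 probe:
Myl2: ataagaatttggtccacatcattacccacg
Myl7: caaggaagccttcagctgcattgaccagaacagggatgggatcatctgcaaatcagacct

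Myh6 had 2 probes on the minus strand, at chr14:55560774-55560833 (the brighter, first 30 bases shown) and at chr14:55584132-55584191 (the dimmer, shown whole), with 23298 bases between them. They are shown because they measured the same gene at separate places:
Myh6, brighter: gcacgacgaggaataacctctccagcagac
Myh6, dimmer: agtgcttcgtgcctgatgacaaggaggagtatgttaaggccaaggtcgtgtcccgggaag

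Nppa (chr4:147376024-147376083, plus strand) was measured by 10 spots of 1 probe on each array, and Myl4 (chr11:104448441-104448500, plus strand) by 1. The first 30 bases of each are shown, as these are the genes whose pattern departed from the rest:
Nppa: cttcctgccttcatctatcacgatcgatgt
Myl4: gttactgttacggagtattggactcacatg

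The thin filament was read through probes for troponin T (no position given) and troponin I (chr7:4472043-4472102, minus strand), shown whole:
Tnnt2: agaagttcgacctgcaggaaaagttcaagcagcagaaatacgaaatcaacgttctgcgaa
Tnni3: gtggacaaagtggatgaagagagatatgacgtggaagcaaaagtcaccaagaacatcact

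No pair among the 11 probes shared a run of more than 8 bases (55 pairs). The same held against the probes of their closest muscle relatives. The longest shared run was 6 bases between Myh6 and Myh7, 6 between Actc1 and Acta1, 8 between Tnnt2 and Tnnt1, 6 between Tnni3 and Tnni1, 5 between Myl4 and Myl1 and 6 between Myl7 and Mylpf. These runs compare 1 probe with another, so they cannot show whether a probe also binds the transcript of a relative, which was not tested. For each relative 1 pair of probes was compared, and Myh8 was not among them. Whether a probe lies in an exon or an untranslated region was not determined here.

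Some features of the arrays bear on what follows. Between 29.9% and 57.8% of spots were well above background. The weakest array was replicate 5 of the sham-irradiated group labelled WT, where repeated spots of a probe differed with a median SD of 0.379, against 0.0780 to 0.126 on the other 19. Each of the 5 slides held 1 array of every group and 1 replicate number. Replicates 1 and 2 of each group were more alike than other pairs: over the probes, log2 values of the 2 arrays were scattered around each other with a robust SD of 0.193 to 0.281, which was 1.65 to 2.2 times the noise between repeated spots. Any other 2 arrays of a group (36 pairs) gave 0.323 to 1.42, or 1.77 to 9.30 times that noise. The ratios overlapped those of replicates 1 and 2 through pairs with the weakest array, whose own spot noise was high. Replicates 1 and 2 were kept as separate mice, as labelled. Whether they come from 2 mice or from 1 RNA labelled more than once cannot be told apart by this comparison with spot noise. Many of the correlations, differences between means and counts of calls are therefore also given with the mean of replicates 1 and 2 counted as 1 sample. That leaves 4 samples a group. Values given without this addition count replicates 1 and 2 as separate mice only. The probe of the targeted gene Il10 went against the direction of the labels. It averaged -1.54 ± 0.45 and -1.85 ± 0.61 (SD, n = 5 each) in the sham and irradiated groups labelled WT, with none of 10 arrays well above background, and 2.75 ± 0.31 and 2.71 ± 0.62 in those labelled Il10-/-, well above background on all 10. Whether this probe lies in the part removed from the allele was not determined, so genotypes are named throughout as labelled. The neutrophil genes S100a8 and S100a9 were higher in unirradiated mice labelled Il10-/-, at 11.98 against 9.63 for S100a8 (limma, adjusted p = 0.0417) and 13.50 against 11.62 for S100a9 (limma, adjusted p = 0.0532). They were the 2 called (limma, p under 0.001 and FDR under 10%) of 10 leukocyte and platelet genes tested. Over all genes 0.902% were called, all of them higher in that label. With replicates 1 and 2 as 1 sample, 2 of the 10 were again called higher. With normexp background correction none of the 10 was called at baseline, nor was any other gene.

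**Figure D1:**
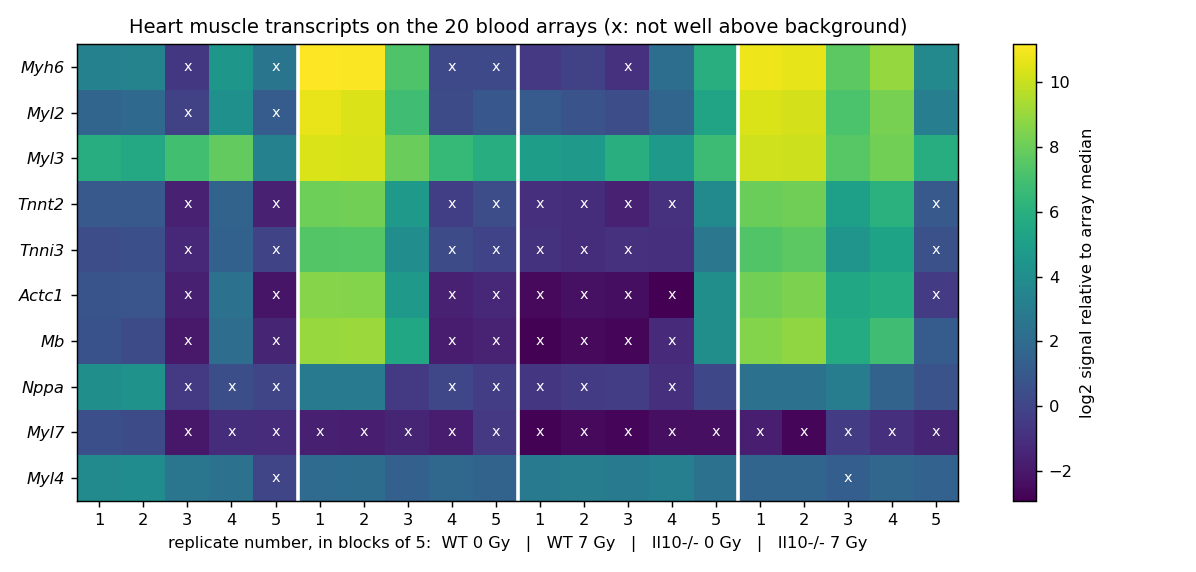
Log2 signal relative to the array median for the brightest probe of each of the 10 genes (rows) on the 20 arrays (columns, in 4 blocks of 5 replicates); a cross marks a signal not well above background. Myh6, Myl2, Tnnt2, Tnni3, Actc1 and Mb brighten and dim on the same arrays, and all 6 are brightest on irradiated replicates 1 and 2 of both genotypes, whereas Myl7 was well above background on 2 arrays only.

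The myosin heavy chain Myh6 ran from signals not well above background, the lowest at -0.92, to 11.19. In the sham group labelled WT its brighter probe read 3.30, 3.38, -0.64, 4.56 and 2.57 in replicates 1 to 5. In the irradiated group labelled WT it read 11.19, 11.10, 7.30, 0.18 and 0.19. The irradiated group was thus split, with 3 arrays above every sham array and 2 arrays below 4 of the 5. In the sham group labelled Il10-/- the readings were -0.59, -0.20, -0.92, 2.18 and 5.93, and in the irradiated group 10.85, 10.65, 7.61, 8.97 and 3.73. Here 4 irradiated arrays lay above every sham array, and the groups overlapped through replicate 5, which was high in the sham group and lowest in the irradiated group. The dimmer Myh6 probe was well above background on 6 arrays, all irradiated: it read 4.18, 3.91 and 0.75 on replicates 1 to 3 labelled WT and 3.31, 3.25 and 2.31 on replicates 1, 2 and 4 labelled Il10-/-. In whole blood, a change in the number of cells of a type and a change in RNA per cell cannot be told apart.

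The ventricular regulatory light chain Myl2 followed the same arrays. It read 1.66, 1.88, -0.14, 4.17 and 1.21 in the sham group labelled WT and 10.71, 10.47, 6.88, 0.38 and 0.92 in the irradiated group. In mice labelled Il10-/- it read 1.12, 0.68, 0.43, 1.70 and 5.32 after sham exposure and 10.40, 10.28, 7.18, 8.29 and 3.09 after 7 Gy. As for Myh6, replicates 4 and 5 of the irradiated group labelled WT lay within the range of the sham arrays, and replicate 5 of the sham group labelled Il10-/- stood above replicate 5 of its irradiated group.

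The thin filament genes moved with the thick filament. Troponin T (Tnnt2) ranged from -1.61 to 1.59 over the sham arrays labelled WT and read 8.05, 8.18, 4.65, -0.30 and 0.39 on the irradiated ones. Troponin I (Tnni3) ranged from -1.31 to 1.44 over the same sham arrays, and its irradiated readings were 7.40, 7.48, 4.00, 0.35 and -0.07. Cardiac actin (Actc1) was not well above background on 4 of the 5 sham arrays labelled Il10-/-, where it read -2.92 to -2.29, while the remaining array, replicate 5, read 4.05. After 7 Gy the Actc1 readings in that genotype were 8.19, 8.42, 5.49, 5.83 and -0.43. Myoglobin (Mb) behaved alike, at -2.84 to -1.17 on the same 4 sham arrays, 4.04 on replicate 5, and 8.59, 8.85, 5.78, 6.83 and 1.18 after irradiation. Among the sham arrays labelled Il10-/-, replicate 5 was thus the only one with Tnnt2, Actc1 and Mb well above background, whereas on those labelled WT replicates 1, 2 and 4 had all 3, at 0.34 to 2.35.

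The ventricular essential light chain Myl3 was the only gene of the set well above background on all 20 arrays. It read 5.85, 5.61, 6.93, 7.79 and 3.28 in the sham group labelled WT, and 10.41, 10.33, 7.99, 6.51 and 5.85 in the irradiated group. For the label Il10-/- the readings were 4.95, 4.69, 5.97, 4.67 and 6.75, and 10.17, 10.12, 7.54, 8.20 and 5.85 after irradiation. Its highest arrays were those of Myh6 and Myl2, but it did not drop to background elsewhere.

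The 6 genes Myh6, Myl2, Tnnt2, Tnni3, Actc1 and Mb shared nearly 1 pattern. Pearson's r over the 20 arrays lay between 0.971 and 0.99 in all 15 pairs of them. Myl3 correlated with the 6 at 0.841 to 0.916, Nppa at 0.515 to 0.607, Myl7 at -0.028 to 0.106 and Myl4 at -0.37 to -0.284. With replicates 1 and 2 of each group as 1 sample (16 samples) the 15 pairs gave 0.959 to 0.991, Myl3 0.771 to 0.881, Nppa 0.557 to 0.628, Myl7 0.082 to 0.189 and Myl4 -0.319 to -0.225. The points of each correlation share their arrays, so these values describe the 20 arrays only. Steps between some arrays of a group were of like size over the 6 genes, and others were not. From replicate 3 to replicate 1 of the irradiated group labelled WT the 6 rose by 3.39 to 3.91, and over the same arrays Nppa differed by 3.34 and Myl3 by 2.42. In the irradiated group labelled Il10-/- the step from replicate 3 to replicate 1 was 2.71 to 3.24 for the 6 genes and 2.62 for Myl3, but -0.59 for Nppa. From replicate 3 to replicate 4 of that group the 6 genes rose by 0.34 (Actc1) to 1.36 (Myh6). Between sham arrays the steps were also uneven: replicate 5 labelled Il10-/- exceeded replicate 1 by 3.52 to 6.88 over the 6 genes, with replicate 1 at or near background for most of them.

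The same 4 arrays, irradiated replicates 1 and 2 of both genotypes, were the highest 4 of 20 for 7 of the 10 genes. The exceptions were Myl4, Myl7 and Nppa. Among the 15159 genes tested the same 4 arrays were highest for 559 (3.69%). With replicates 1 and 2 averaged, the 2 irradiated means were the highest 2 of 16 samples for the same number of the 10 genes, 7, and for 716 of all genes (4.72%). Over the 10 genes, replicates 1 and 2 of a group differed by a median of 0.071 to 0.27 log2 units, and the 36 other pairs by 0.168 to 7.81.

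**Figure D2:**
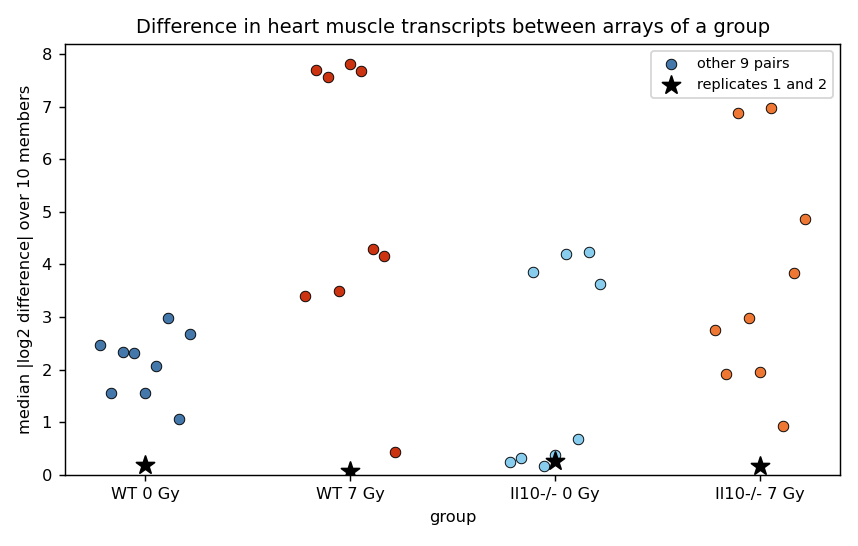
Median absolute log2 difference over the 10 genes between 2 arrays of the same group (vertical axis), for each pair in each of the 4 groups; black stars are replicates 1 and 2 and coloured points are the other 9 pairs of the group. Replicates 1 and 2 differ by at most 0.27 in every group, while other pairs differ by up to 7.81.

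Group means gave the same picture with wide spreads. Mean Myh6 was 2.63 ± 1.96 in the sham group labelled WT and 5.99 ± 5.53 in the irradiated group (SD, n = 5 each), a difference of 3.36, which was smaller than the SD of the irradiated group. Within slides the Myh6 difference was 7.89, 7.72, 7.94, -4.38 and -2.38 for replicates 1 to 5, so its sign depended on the pair. Mean Myh6 in mice labelled Il10-/- was 1.28 ± 2.87 and 8.36 ± 2.91, a difference of 7.08, positive on 4 of 5 slides. With replicates 1 and 2 counted as 1 sample these differences became 2.25 and 6.07.

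For Myl2 the means were 1.76 ± 1.56 and 5.87 ± 5.01 in mice labelled WT, a difference of 4.12 (2.94 with replicates 1 and 2 as 1 sample), and 1.85 ± 2.00 and 7.85 ± 2.99 in those labelled Il10-/-, a difference of 6.00 (5.14). Over the 4 remaining genes of the shared pattern and Myl3 the differences lay between 2.33 (Myl3) and 4.11 (Tnnt2) in mice labelled WT, and between 2.97 (Myl3) and 7.28 (Mb) in mice labelled Il10-/-. With replicates 1 and 2 as 1 sample they were 1.75 for Myl3, 2.75 for Actc1, 2.79 for Tnni3, 2.98 for Mb and 3.37 for Tnnt2 in mice labelled WT. The same values were 2.38, 5.72, 4.47, 6.24 and 5.01 for the label Il10-/-. Tnnt2, Actc1 and Mb were well above background on 1 of the 5 sham arrays labelled Il10-/-, so their differences there rest partly on signals near background, and no order of the genes is read from them. In each of these 7 genes the sham and irradiated groups overlapped in both genotypes. Over the 10 genes, 2 had groups that did not overlap in mice labelled Il10-/- (Nppa and Myl4), 1 at baseline between genotypes (Myl7) and none in mice labelled WT. Over all 31093 genes on the array the shares were 10.9%, 3.64% and 9.04%. Nothing is read from these counts, since the genes were chosen on these arrays.

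Between unirradiated mice of the 2 labels Myl2 differed by 0.09, with means of 1.76 ± 1.56 labelled WT and 1.85 ± 2.00 labelled Il10-/-. The value turned to -0.78 without replicate 5 labelled Il10-/-, and was 0.33 with replicates 1 and 2 as 1 sample. Nppa differed by -2.14, with SDs of 2.34 labelled WT and 0.42 labelled Il10-/-, and was high only on WT replicates 1 and 2. Myl7 differed by -1.89, with SDs of 1.07 and 0.22. Across slides the sign was mixed for every gene except Myl7. On all 5 slides Myl7 was lower in the group labelled Il10-/-, where it was not well above background.

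Of the atrial genes, Myl7 and Myl4 did not follow the ventricular ones, and Nppa did so only in part. Atrial natriuretic peptide (Nppa) was highest on 2 sham arrays: the group labelled WT read 4.08, 4.33, -0.53, 0.45 and 0.03. The irradiated group read 2.82, 2.84, -0.52, 0.06 and -0.38. Replicates 1 and 2 were thus high in both groups and the other 3 near 0, and irradiated replicate 3, which had Myh6 at 7.30 and Myl2 at 6.88, had Nppa at -0.52. In mice labelled Il10-/- Nppa read -0.69, -0.43, -0.38, -0.98 and 0.14 after sham exposure and 2.39, 2.41, 2.98, 1.58 and 0.71 after 7 Gy. Every irradiated array there lay above every sham array, with means of -0.47 ± 0.42 and 2.01 ± 0.88.

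The atrial regulatory light chain Myl7 rose well above background only on replicates 1 and 2 of the sham group labelled WT, where it read 0.54 and 0.31. On the other 18 it read from -2.84 to -0.44. The arrays richest in Myh6 and Myl2 had no Myl7 signal well above background: irradiated replicates 1 and 2 read -1.66 and -1.72 labelled WT and -1.72 and -2.70 labelled Il10-/-. Sarcolipin (Sln), a regulator of the calcium pump that in the heart is mainly atrial and is not among the 10 genes, was well above background on the same 2 arrays, at 0.92 and 1.10, and read -3.27 to -0.28 on the rest. Sln was 1 of 5 further atrial genes examined. Gja5, which encodes the gap junction protein connexin 40 of atrial muscle and of arteries, was well above background on 3 sham and 3 irradiated arrays labelled WT, and on 4 sham arrays and no irradiated array labelled Il10-/-. Kcnj3, an atrial potassium channel gene, was so on 1 sham array labelled WT, and Sbk2 and Bmp10 on none.

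**Figure D3:**
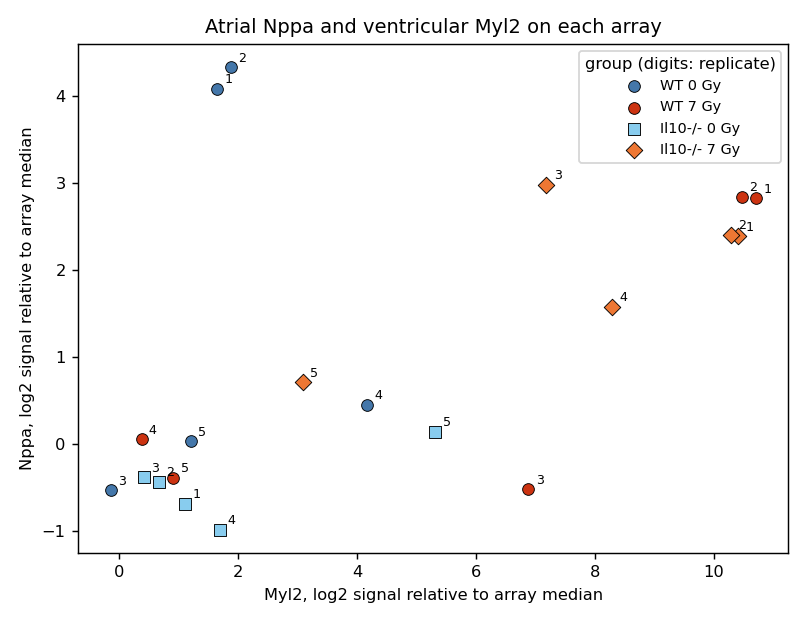
Log2 signal relative to the array median of ventricular Myl2 (horizontal axis) against atrial Nppa (vertical axis), 1 point per array, coloured by group and numbered by replicate. Sham replicates 1 and 2 labelled WT lie at the top left (Nppa 4.08 and 4.33, Myl2 1.66 and 1.88), and irradiated replicates 1 and 2 of both genotypes at the right (Myl2 10.28 to 10.71, Nppa 2.39 to 2.84).

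A chamber contrast was formed for each array as the mean of Myl7, Nppa and Myl4 minus the mean of Myl2 and Myl3, each gene first centred on its own mean over the 20 arrays. In the sham group labelled WT it was 4.14, 4.21, 1.71, -0.31 and 2.47, with the atrial genes highest on replicates 1 and 2. In the irradiated group it was -4.42, -4.26, -2.54, 1.64 and 1.91, so the first 3 arrays were tilted to the ventricular genes and the other 2 were not. In mice labelled Il10-/- it was 1.85, 2.40, 1.83, 1.85 and -0.88 after sham exposure and -4.42, -4.66, -0.997, -2.40 and 0.87 after 7 Gy. The group means were 2.45 ± 1.88 and -1.53 ± 3.11 labelled WT, and 1.41 ± 1.30 and -2.32 ± 2.33 labelled Il10-/- (SD, n = 5 each). The difference between sham and irradiated groups was -3.98 labelled WT and -3.73 labelled Il10-/-, or -2.84 and -3.00 with replicates 1 and 2 as 1 sample. Most of the contrast came from the ventricular side, which ran from -3.41 to 4.91 over the arrays while the atrial side ran from -0.94 to 2.30. Without Myl4 the 2 differences were -3.96 and -2.70. A list of 4 other ventricular genes averaged -0.34 ± 0.56 and -0.19 ± 0.37 in the sham and irradiated groups labelled WT. In those labelled Il10-/- it averaged -1.16 ± 0.24 and 0.07 ± 0.39. At most 1 of the 4 was well above background on all 5 arrays of a group. The tilt in mice labelled WT is thus a description of Myl2 and Myl3.

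The atrial essential light chain Myl4 had a pattern of its own. It read 3.81, 3.96, 2.60, 2.39 and 0.01 in the sham group labelled WT and 2.01, 2.05, 1.42, 1.82 and 1.56 in the irradiated group. Its readings labelled Il10-/- were 2.93, 2.99, 2.94, 3.18 and 2.39, and 1.68, 1.66, 1.30, 1.75 and 1.51 after 7 Gy. The irradiated arrays labelled Il10-/- all lay below the sham ones, with means of 1.58 ± 0.18 and 2.88 ± 0.29. In mice labelled WT the only sham array below the irradiated ones was the weak replicate 5, which read 0.01 and was not well above background. Leaving it out changed the difference from -0.78 to -1.42. Its values thus went against its place among the heart genes: Myl4 was low on irradiated arrays both with and without Myh6 signal.

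The mean level of red cell precursor transcripts was also lower after 7 Gy. The mean of 13 erythroid genes was 6.17 ± 0.70 and 4.69 ± 0.45 in the sham and irradiated groups labelled WT, and 6.36 ± 0.66 and 4.70 ± 0.44 in those labelled Il10-/-. Of the 13, all tested, 6 fell after 7 Gy in mice labelled WT and 9 in those labelled Il10-/-, and none rose (limma, p under 0.001 and Benjamini-Hochberg FDR under 10%), against 2.43% and 6.34% of all genes called lower. Counting replicates 1 and 2 as 1 sample, 5 fell in each. With normexp background correction, 1 of the 11 still tested fell in mice labelled WT and none in those labelled Il10-/-. Over all genes that setting called 5 lower in mice labelled WT and none in the other label. Not all members went down. Gata1, which encodes the leading transcription factor of red cell precursors, was higher after 7 Gy by 0.88 labelled WT and 0.78 labelled Il10-/-, values that were not called. The transferrin receptor gene Tfrc averaged 2.80 and 3.74, and 3.12 and 3.63, by its brightest probe, which was not called, while its dimmer probe fell by 2.40 in mice labelled Il10-/- (limma, adjusted p = 0.00403). Sham replicate 5 labelled WT, the lowest of its group in both, had Myl4 at 0.01 and an erythroid mean of 5.50, above every irradiated array. Some other sham arrays did not pair the values in this way. Replicate 5 labelled Il10-/- had the highest erythroid mean of its group, 7.02, and the lowest Myl4, 2.39. Replicate 4 labelled WT had the highest erythroid mean of all, 7.35, with Myl4 at 2.39. The part of red cell precursors in the Myl4 values was not tested.

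**Figure D4:**
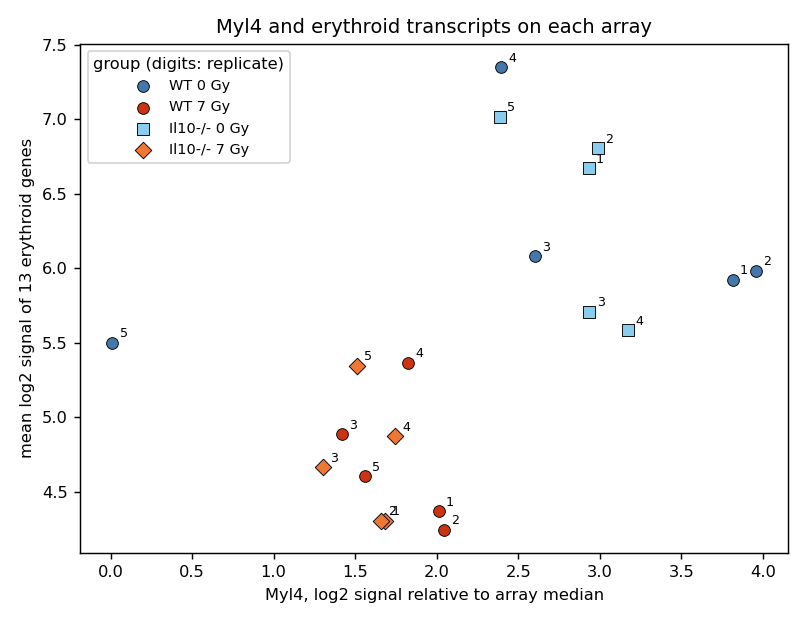
Log2 signal of Myl4 (horizontal axis) against the mean log2 signal of 13 erythroid genes (vertical axis), both relative to the array median, 1 point per array, coloured by group and numbered by replicate. Irradiated arrays lie at the lower left (Myl4 1.30 to 2.05, erythroid mean 4.25 to 5.37) and all but 1 of the sham arrays to the right of them; the exception is sham replicate 5 labelled WT at 0.01.

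Other genes of heart muscle were then examined from a list of 47 that held none of the 10. Of these, 30 passed the filters on dim and steady probes, and could be tested with limma across all 18587 probes tested. Few were called. After 7 Gy 1 rose and none fell in mice labelled WT, against 7.27% of all genes called in either direction, 4.84% higher and 2.43% lower. With the label Il10-/- 2 rose and none fell, against 9.85% in either direction, 3.54% higher and 6.34% lower. Between unirradiated mice of the 2 labels none was called, against 0.902% of all genes, and none in the difference between the 2 responses to 7 Gy, where no gene of any kind was called (0%). With normexp background correction none of the list was called after 7 Gy in either genotype; over all genes that setting called 244 higher and 5 lower in mice labelled WT and none in those labelled Il10-/-.

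At an unadjusted p under 0.05 the counts among the 30 were larger. They were 12 in mice labelled WT (29.5% of all genes), 23 in those labelled Il10-/- (35.4%), 6 at baseline (16.7%) and 1 in the difference between responses (7.14%), each gene taken by its brightest probe. Median log2 differences over the 30 were 1.45 after 7 Gy in mice labelled WT and 1.78 in those labelled Il10-/-, against -0.03 and -0.10 over all 15159 genes tested. The means were higher in the irradiated group for 26 and 29 of the 30. At baseline the median was -0.22, against 0.35 over all genes.

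The gene called in mice labelled WT was Fabp3, which encodes the fatty acid binding protein of heart muscle. It read 1.19, 1.45, -0.93, 2.83 and -0.23 after sham exposure and 8.50, 8.29, 5.47, 2.81 and 3.63 after 7 Gy, so that 4 irradiated arrays lay above all sham arrays and replicate 4 just below the highest. The log2 difference of this probe was 4.88 with an SE of 1.00 (limma, adjusted p = 0.00478), and a dimmer probe gave 5.33 (limma, adjusted p = 0.00364). With the label Il10-/- Fabp3 differed by 4.10 with an SE of 1.08 and missed the limit on p (limma, adjusted p = 0.0194), and its response there minus that in mice labelled WT was -0.78, which was not called (limma, adjusted p = 0.923). On irradiated replicates 4 and 5 labelled WT, where Myh6 read 0.18 and 0.19, Fabp3 was still well above background. The count in mice labelled WT was 1 with replicates 1 and 2 as 1 sample and 3 with the replicate number as a block. No heart muscle gene was called there without the weak sham replicate 5, whereas 4 were without irradiated replicate 4 and 3 without irradiated replicate 5.

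The genes called in mice labelled Il10-/- were Tcap and Hspb7. Telethonin (Tcap), which caps the giant protein titin at the edge of the sarcomere, read 0.44, -0.44, 0.38, 0.58 and 2.92 after sham exposure and 8.62, 8.71, 5.57, 6.89 and 1.52 after 7 Gy, a difference of 5.49 with an SE of 1.17 (limma, adjusted p = 0.00701). The groups overlapped through replicate 5. The small heat shock protein gene Hspb7 averaged -1.74 and 1.02 and was not well above background on any sham array. Only irradiated replicates 1 and 2 were well above it, at 2.17 and 2.72. The log2 difference was 2.76 with an SE of 0.60 (limma, adjusted p = 0.00794), and it rests largely on signals near background. Neither call held with replicates 1 and 2 of each group counted as 1 sample, with the replicate number as a block or with normexp correction, each of which left no gene of the list called. Without irradiated replicate 5, 13 were called, and 3 without irradiated replicate 3. Leaving out sham replicate 1 or 2 or irradiated replicate 2 left none, and sham replicate 3 or 4 or irradiated replicate 1 or 4 left 1.

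Irradiated replicates 1 and 2 of both genotypes were the highest 4 arrays for 26 of the 47 genes, or 55.3%, and their 2 means were the highest 2 of 16 samples for 26. The mean of the 47 genes was 3.27, 3.29, 1.21, 0.06 and 0.08 on the irradiated arrays labelled WT and 3.16, 3.28, 1.68, 1.79 and 0.35 on those labelled Il10-/-. On sham arrays it lay between -0.73 and 0.74, and its highest values there were 0.74 on replicate 4 labelled WT and 0.73 on replicate 5 labelled Il10-/-. These were also the sham arrays with the highest Myl2, at 4.17 and 5.32.

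Markers of other tissues were read on the same arrays. Skeletal muscle was nearly flat: the mean of 18 of its genes stayed between -0.28 and 0.96 on all arrays, and none of the 9 tested was called in any comparison. Skeletal actin (Acta1) stayed between -0.95 and 0.29. Lung epithelium was as flat, with means of -0.30 to 0.79 over 7 genes. Endothelium (6 genes) averaged 1.67 ± 0.37 and 2.36 ± 0.55 in the sham and irradiated groups labelled WT, and 1.86 ± 0.15 and 2.68 ± 0.12 labelled Il10-/-. Smooth muscle (7 genes) averaged 1.42 ± 0.40 and 1.81 ± 0.25, and 1.74 ± 0.63 and 2.40 ± 0.37. No gene of either list was called in the main fit, or with replicates 1 and 2 as 1 sample.

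Hepatocyte transcripts varied as widely as those of the heart, and on partly different arrays. The mean of 17 hepatocyte genes was 1.88, 1.78, 1.04, 1.39 and 0.45 on the sham arrays labelled WT and 10.46, 10.51, 7.71, 2.59 and 4.98 on the irradiated ones. The sham arrays labelled Il10-/- gave 2.10, 2.19, 7.63, 8.88 and 1.96, and the irradiated ones 8.75, 8.79, 1.94, 7.58 and 4.41. Albumin (Alb), the main protein of plasma, read 13.17 and 13.41 on irradiated replicates 1 and 2 labelled WT. Heart and liver transcripts were high together on irradiated replicates 1 and 2 of both genotypes, on replicate 3 labelled WT and on replicate 4 labelled Il10-/-.

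On other arrays they came apart. Sham replicates 3 and 4 labelled Il10-/- had hepatocyte means of 7.63 and 8.88 while the median of the 6 heart genes was -1.28 and -0.92. Irradiated replicate 3 labelled Il10-/- was the reverse, with a heart median of 5.63 and a hepatocyte mean of 1.94. Sham replicate 5 labelled Il10-/- likewise had a heart median of 4.05 beside a hepatocyte mean of 1.96. Of the 15 hepatocyte genes tested, 11 rose after 7 Gy in mice labelled WT and none was called in those labelled Il10-/- (limma, where none had an unadjusted p under 0.05), against 4.84% and 3.54% of all genes called higher. None of the 15 was called in the difference between the 2 responses, and 5 had an unadjusted p under 0.05 there. With replicates 1 and 2 as 1 sample the counts after 7 Gy were again 11 and none, and with normexp correction 4 and none. Between unirradiated mice 2 of the 15 were called higher in those labelled Il10-/-, and 8 with replicates 1 and 2 as 1 sample. The part of liver transcripts in the heart values was not tested.

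**Figure D5:**
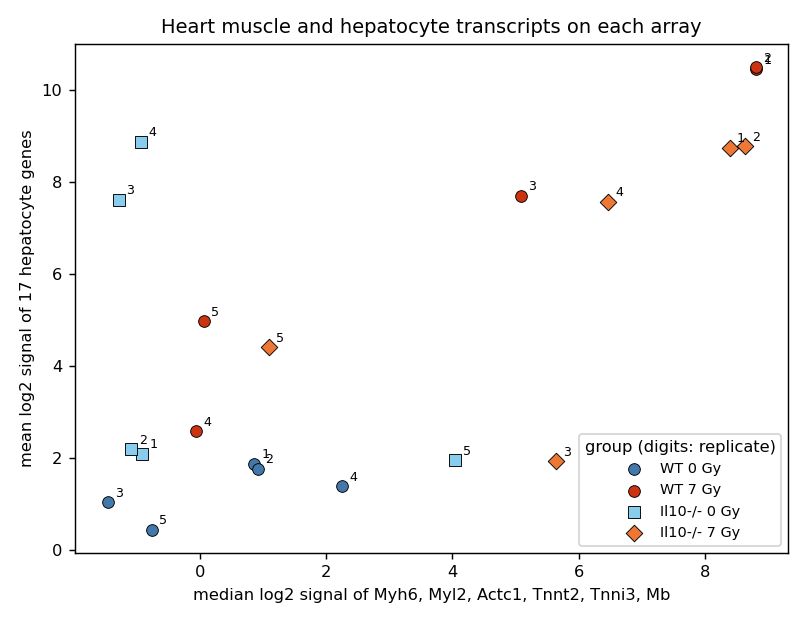
Median log2 signal of Myh6, Myl2, Actc1, Tnnt2, Tnni3 and Mb (horizontal axis) against the mean log2 signal of 17 hepatocyte genes (vertical axis), relative to the array median, 1 point per array, coloured by group and numbered by replicate. Arrays high in both lie at the upper right; sham replicates 3 and 4 labelled Il10-/- are high in liver genes only (7.63 and 8.88), and irradiated replicate 3 labelled Il10-/- is high in heart genes with a hepatocyte mean of 1.94.

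The means of mesothelial transcripts did not overlap between sham and irradiated arrays of either label. The mean of 5 mesothelial genes was -1.36 to -0.50 on sham arrays labelled WT and 1.16 to 2.95 on irradiated ones, and -1.81 to 0.12 and 0.93 to 2.02 on those labelled Il10-/-. All 5 mesothelial genes rose in mice labelled WT and 3 of 5 in those labelled Il10-/-. Of 4 fibroblast genes tested, 3 and 4 rose, and these counts stand against the same 4.84% and 3.54% of all genes called higher. The counts with replicates 1 and 2 as 1 sample were 5 and 3 for mesothelial and 3 and 3 for fibroblast genes. With normexp correction, 1 of the 2 mesothelial genes still tested was called in mice labelled WT and none in the other label, and no fibroblast gene in either. Both lists were also above all sham arrays of that label on irradiated replicates 4 and 5 labelled WT, where 5 of the 6 heart genes were not well above background, the exception being Myl2. The defining markers of blood, 10 leukocyte and platelet genes, were well above background on all 5 arrays of 3 groups, and 9 of the 10 on all 5 of the irradiated group labelled Il10-/-.

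The genes most like the heart transcripts were sought among 13826 others by Pearson's r over the 20 arrays. Closest to Myh6 were Myh8 (0.973), Tcap (0.964), Mybpc3 (0.956), Tnnc1 (0.951) and Cox6a2 (0.946), and closest to Myl2 were Myh8 (0.986), Tcap (0.981), Mybpc3 (0.979), Cox6a2 (0.974) and Ptgds (0.967). Mybpc3 encodes cardiac myosin binding protein C, Tnnc1 the troponin C of heart and slow muscle, and Cox6a2 a respiratory chain subunit of striated muscle. Myh8 encodes a myosin heavy chain of developing skeletal muscle, and its probe read 7.37, 7.26 and 3.36 on irradiated replicates 1 to 3 labelled WT. Ptgds encodes a prostaglandin D synthase.

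The closest genes to Myl4 were Mif4gd (0.924), Rpl5 (0.92), Rpl9 (0.918), Cables2 (0.917) and Rtel1 (0.914), of which Rpl5 and Rpl9 encode ribosomal proteins. No gene of the heart muscle list or of the erythroid list was among them. The closest to Nppa reached only 0.647 (Defb28), followed by Gm10336, Dnaaf3, Tmem88 and Chat at 0.615 to 0.596. Those closest to Myl7 were Cacnb1 (0.652), Dmrt2, Olfr357, Gm4151 and Kap, the last at 0.634. The top of a search over this many genes is high by selection, and with Myl7 well above background on 2 arrays its likenesses describe mostly signals near background.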

How the data were processed

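Whole blood RNA was hybridised to 20 one-colour (Cy3) mouse arrays, 5 per group, and groups were taken from the sample titles. The deposited scanner files give background-corrected intensity per spot, made by the authors with Agilent Feature Extraction (10.7 in the methods and the submitters' notes, 12.0.2.2 in the file headers). The deposited series table holds the authors' log2 values after their normalization, and was used as an alternative. Here log2 processed intensity was taken, non-uniform outlier spots were dropped, repeated spots averaged and each array's median over 39429 non-control probes subtracted, after the methods. Probes flagged as outliers, or as indistinct from background, on at least 25% of arrays were removed, as were those not 1.5-fold from their median on 20% of arrays, which left 18587. Of the 10 genes, 7 passed; Myl7, Actc1 and Mb did not pass the background filter, and no count over those that passed is used as support.

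Groups were compared in pairs with limma 3.58.1 (R 4.3.3), and the difference between responses over all 20 arrays, with calls at p under 0.001 and an FDR under 10%; a gene counted as called where any of its probes was. Python 3.11.15 with pandas 2.3.3 did the rest, and the fit was tested on simulated data. Each gene is described by its probe with the highest mean over the arrays. Named genes were the 10, those called in the other heart list, the 5 most like each of Myh6, Myl2, Myl7, Nppa and Myl4, and Il10; marker genes (Acta1, Alb, Sln, Bmp10, Gja5, Kcnj3, Sbk2, Gata1, Tfrc, S100a8 and S100a9) were named after their values were seen. The genes and lists were chosen with earlier results of these data known. The number of arrays limits the precision. Alternatives were normexp correction (offset 50), 75th percentile scaling, quantile normalization, the authors' values, no filters, a replicate block and each array left out; replicates 1 and 2 averaged was added after the data were seen. Protein sequences and a genome were not used here.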

Additional observations from a re-analysis of the deposited data

Results flagged for a closer look

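In each group of 5 arrays the gap from the highest or lowest array to its nearest neighbour was set against the range of the group. This was done for 40 groups (10 genes in 4 groups), and in 5 the gap was wide. The usual rate by chance, about 1 in 20 groups, does not apply to genes chosen on these arrays, so the values are a description. All 5 were the highest value of sham replicate 5 labelled Il10-/-: Myl2 at 5.32 (next 1.70), Tnnt2 at 3.79 (next -0.89), Tnni3 at 2.68 (next -0.84), Actc1 at 4.05 (next -2.29) and Mb at 4.04 (next -1.17), in log2 signal relative to the array median. The 5 share 1 array and are not independent. On the same array 49.4% of spots were well above background and the hepatocyte mean was 1.96; why it stands apart was not tested.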

How the results depend on the processing

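For the 10 genes, 461 of 470 differences between group means recomputed under the alternatives stayed within 1 SD of the value reported, and 9 moved, 8 of them under normexp correction and 1 (Myl7) under quantile normalization. This limit was wide, since the SD of a group reached 5.53 (Myh6, irradiated, labelled WT). Staying within it therefore does not show that a difference was stable. Small differences could change sign, as Myl2 did at baseline. The counts of other heart muscle genes called also varied. In mice labelled WT the 1 called became 0 with normexp correction, 2 with the authors' values and 3 with a replicate block, and 0 to 4 leaving out single arrays. In mice labelled Il10-/- the 2 called became 0 with normexp correction, 1 with quantile normalization, 7 with the authors' values, 11 with no filters (where more genes are tested), 0 with a replicate block and 0 with replicates 1 and 2 of each group averaged, and 0 to 13 leaving out single arrays. The cause of these changes was not tested. The counts of 0 at baseline and in the difference between responses stayed at 0 under every alternative run, and the chamber contrast kept its sign in all. In the authors' values Myl7 was absent and Myl4 had 19 of 20 values. Genes with missing values were left out, so the atrial side there was Nppa alone. As most of the contrast came from Myl2 and Myl3, its sign says little about the atrial genes. Arrays with the same replicate number shared a slide, and their deviations from the group means correlated at -0.128 to 0.414 on average. Between the 2 groups labelled WT the mean was 0.223, and between the 2 irradiated groups 0.414, each with 4 of 5 numbers over 0.1. The other pairs of groups had 2 of 5. As no pair of groups exceeded 0.1 for all 5, the main fit did not use the pairing. The part of the slide was not tested beyond the replicate block. Signals near background limit Myl7, Actc1 and Mb, and with 5 arrays that fall into high and low ones a group mean describes few of them.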
